A study of Mus musculus with 4 samples.

Results

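The genes described here encode the COP9 signalosome and its close partners in the control of cullin neddylation: Gps1, Cops2, Cops3, Cops4, Cops5, Cops6, Cops7a, Cops8, Cand1 and Nedd8. They were taken by name, as every probe set whose gene symbol in the deposited table equals 1 of these 10 symbols, which gave 20 of 45037 probe sets and 10 of 20656 genes. The array had 1 probe set for 4 of the genes (Gps1, Cops4, Cops8 and Nedd8) and several for the other 6. LSK cells (Lin-ckit+Sca1+, the fraction that holds hematopoietic stem cells and multipotent progenitors) were sorted from fetal livers of E16.5 embryos. The Ddb1-deficient group held 2 samples of genotype DDB1 flox/flox, VavCre+ and the control group 2 samples of genotype DDB1 flox/flox, VavCre-, both on strain C57BL/6x129, so that all 4 samples carried the floxed alleles. The labels, which were followed here, give the controls as lacking Cre, but a heat map in the study marks them as positive for Vav1Cre. Cre was driven by the Vav1 promoter, which is active throughout the hematopoietic compartment of the embryo and not only in LSK cells. Each sample gave 1 Affymetrix Mouse430_2 array, from 20 ng of RNA amplified in 2 cycles. The sources used here do not say whether embryos were pooled for these cells, so the p-values measure only the spread between the arrays.

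Cullin-RING ubiquitin ligases are switched on when the small ubiquitin-like protein Nedd8 is attached to their cullin scaffold. The COP9 signalosome takes Nedd8 off again, and Cand1 then binds the bare cullin and helps to exchange the substrate receptors, so that the ligase pool is rebuilt in cycles of neddylation and deneddylation. Ddb1 is the adaptor through which Cul4a and Cul4b reach their substrate receptors, and the Cul4 ligases are among those that the signalosome acts on.

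The log2 intensity of Ddb1 itself read 4.58 and 4.33 on the Ddb1-deficient arrays, against 6.06 and 6.26 on the control arrays. Both Ddb1-deficient arrays were low, at 30.8% of the control level on the linear scale (log2 difference -1.70, SE 0.20, adjusted p = 0.162 by limma over all genes). Which exons its probe set covers relative to the deleted part is not given in the sources used here. The adjusted threshold of 0.05 was passed by no gene (0 of 20656, 0%, by limma; 2257 had an unadjusted p under 0.05, and the methods' test called 2). The smallest adjusted p over all genes was 0.133, and an exact permutation test of 2 arrays against 2 cannot go below 0.333. The log2 intensities had array medians between 2.03 and 2.08, and a probe set with a mean over the arrays of 2.08 or less is called dim here. By Xist, at 2.15 and 9.96 on the Ddb1-deficient arrays against 1.93 and 10.09 on the control arrays, replicate 1 was male and replicate 2 female in each group. The markers that the gate selects for, Kit and Ly6a (Sca1), were well above the array median on all 4 arrays, Kit at 6.41 and 5.63 on the Ddb1-deficient arrays against 6.18 and 6.40 on the control arrays.

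With each gene represented by its brightest probe set, all 10 genes had a lower mean on the Ddb1-deficient arrays than on the control arrays. So did 9430 of all 20656 genes, and 6308 of the 11770 genes brighter than the median. The log2 differences of the 10 members lay between -0.84 (Gps1) and -0.05 (Cops7a). Their median was -0.52, beside 0.03 over all genes and -0.048 over the genes brighter than the median. The median came to -0.23 when the probe sets of a gene were averaged and to -0.31 without Ddb1-deficient replicate 2. Cops7a turned to 0.73 with the mean of all probe sets and to 0.05 after a second quantile normalization. No member passed the adjusted threshold (adjusted p 0.444 to 0.992, limma). At an unadjusted p under 0.05, 1 of the 10 was lower and 0 were higher, where 6.03% of all genes were lower and 4.90% higher. For 5 of the 10 (Cops2, Cops3, Cops4, Cops6 and Cops8) both Ddb1-deficient arrays lay below both controls, and for 0 both lay above, where values within 0.001 (log2) of each other count as equal. Over all genes 18.4% lay below and 22.5% above in this way, and among the 11770 genes brighter than the median, to which all 10 members belong, 25.5% lay below and 19.8% above. The other 5 members overlapped between the groups. RNA of whole sorted samples was measured, so fewer cells of a type and less RNA per cell cannot be told apart.

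**Figure D1:**
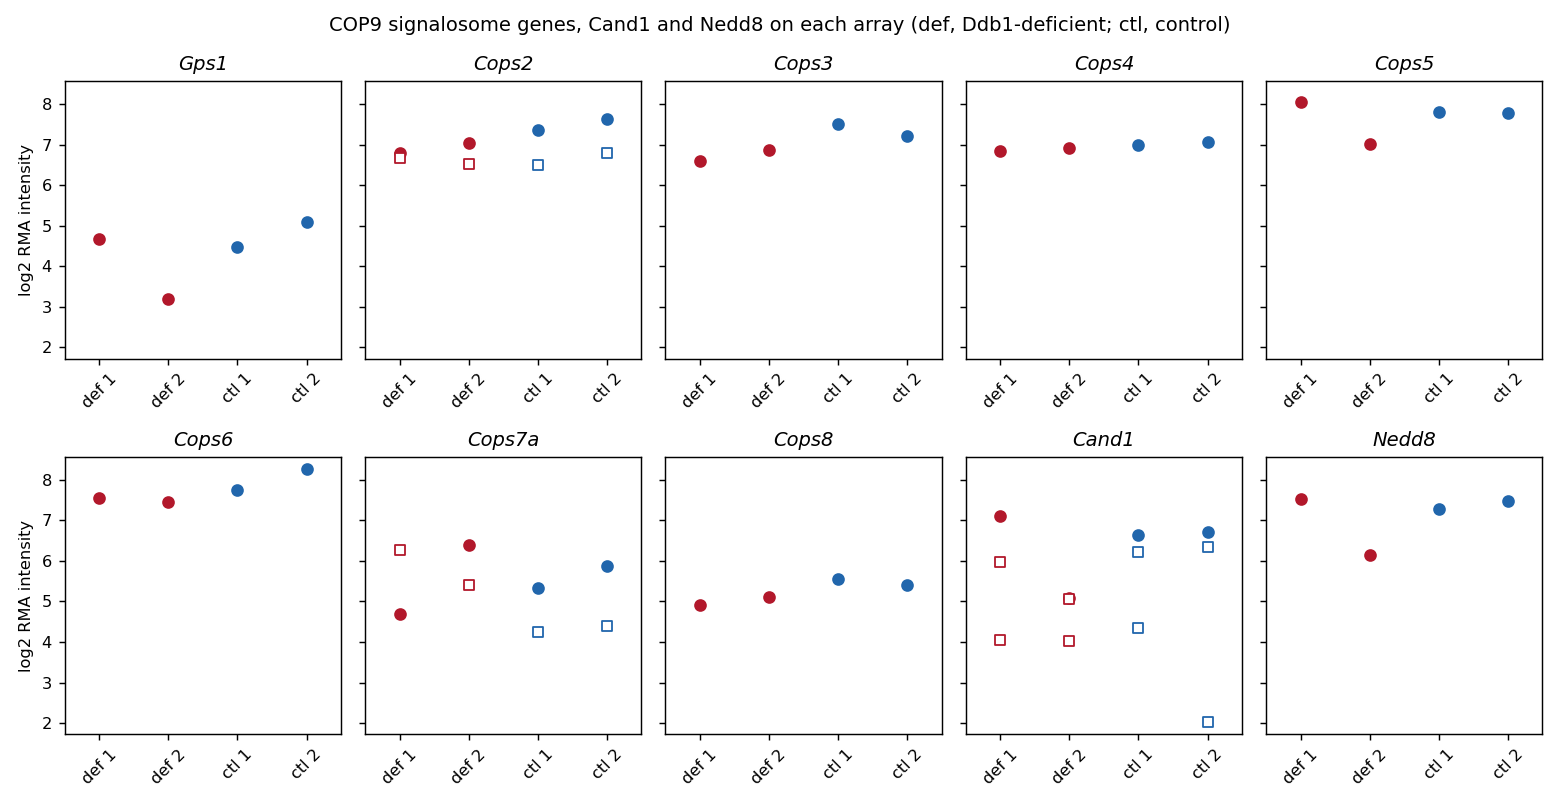
Log2 RMA intensity (vertical axis) of each member on the 2 Ddb1-deficient (def, red) and the 2 control (ctl, blue) arrays; filled circles are the probe set that stands for the gene and open squares its other probe sets that are not dim, with 1 point per array. Cops2, Cops3, Cops4, Cops6 and Cops8 have both red circles below both blue ones, whereas Gps1, Cops5, Cand1 and Nedd8 are low on Ddb1-deficient array 2 alone.

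The subunits of the signalosome that carry a PCI domain build its scaffold. Cops3 read 6.60 and 6.87 on the Ddb1-deficient arrays, against 7.50 and 7.22 on the control arrays. The groups did not overlap, and the Ddb1-deficient mean was 64.6% of the control mean on the linear scale, from the means of the log2 values (log2 difference -0.63, SE 0.22, unadjusted p = 0.0452, adjusted p = 0.444, limma). This was the only member with an unadjusted p under 0.05, and the methods' test, an equal-variance test on the same arrays, gave Cops3 a p above that threshold. The other 3 Cops3 probe sets were dim, with log2 differences of 0.29, 0.29 and -0.10, and averaging all 4 probe sets brought the difference of the gene to -0.04.

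Cops2, the subunit that contacts the cullin and its RING partner, read 6.79 and 7.03 on the Ddb1-deficient arrays, against 7.35 and 7.64 on the control arrays. Both Ddb1-deficient values lay below both controls, at 66.6% of the control mean (log2 difference -0.59, SE 0.21, adjusted p = 0.464, limma). A second Cops2 probe set, 1437039_at, read 6.68 and 6.53 on the Ddb1-deficient arrays, against 6.50 and 6.78 on the control arrays. Here the groups overlapped and the log2 difference was -0.04, with an interval of -0.59 to 0.52 (95%), so the 2 probe sets of Cops2 did not show the same size of difference.

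Cops8, the smallest of the scaffold subunits, read 4.92 and 5.10 on the Ddb1-deficient arrays, against 5.56 and 5.40 on the control arrays. Its groups did not overlap either (72.2% of control, log2 difference -0.47, SE 0.19, adjusted p = 0.507, limma). Cops4, a scaffold subunit that also touches the catalytic pair, read 6.85 and 6.92 on the Ddb1-deficient arrays, against 6.99 and 7.07 on the control arrays. The 4 Cops4 values lay close together, and its difference of -0.14 had an interval of -0.62 to 0.34, which includes 0.

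Gps1, the subunit also known as CSN1, read 4.68 and 3.19 on the Ddb1-deficient arrays, against 4.47 and 5.08 on the control arrays. Only Ddb1-deficient array 2 was low, and array 1 lay between the controls. The log2 difference of -0.84 (SE 0.60, adjusted p = 0.705, limma) was the largest in size of the 10 and came to -0.09 without Ddb1-deficient array 2.

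Cops7a was measured by 2 probe sets that gave different orders of the arrays. The brighter one, 1429078_a_at, read 4.70 and 6.38 on the Ddb1-deficient arrays, against 5.33 and 5.86 on the control arrays. The 2 Ddb1-deficient values lay on either side of the controls, and the difference of -0.05 had an interval of -1.87 to 1.76. The other, 1423245_at, read 6.26 and 5.40 on the Ddb1-deficient arrays, against 4.25 and 4.38 on the control arrays. Both Ddb1-deficient arrays were high (log2 difference 1.52, SE 0.35, unadjusted p = 0.0129, adjusted p = 0.363, limma over all probe sets), the only member probe set with an unadjusted p under 0.05 in the higher direction. Averaging both probe sets turned the difference of the gene to 0.73, so Cops7a has no settled direction here.

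The subunits Cops5 and Cops6 carry the MPN domain and form a pair, in which Cops5 is the metalloprotease that cleaves Nedd8 from the cullin. Cops5 read 8.04 and 7.02 on the Ddb1-deficient arrays, against 7.79 and 7.77 on the control arrays. Ddb1-deficient array 1 was above both controls and array 2 below both, so the groups overlapped (log2 difference -0.25, interval -1.37 to 0.87). Cops6, the partner without protease activity, read 7.55 and 7.46 on the Ddb1-deficient arrays, against 7.74 and 8.25 on the control arrays. Both Ddb1-deficient values were below both controls, at 71.1% of the control mean (log2 difference -0.49, SE 0.25, adjusted p = 0.599, limma). The second probe set of each of these genes was dim, with differences of 0.17 for Cops5 and -0.33 for Cops6, and neither separated the groups.

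Nedd8, the modifier itself, read 7.53 and 6.13 on the Ddb1-deficient arrays, against 7.28 and 7.47 on the control arrays. Ddb1-deficient array 1 was the highest of the 4 and array 2 the lowest (log2 difference -0.55, SE 0.53, adjusted p = 0.787, limma). Cand1, the exchange factor, followed the same order, at 7.10 and 5.09 on the Ddb1-deficient arrays against 6.64 and 6.71 on the control arrays. Its difference of -0.58 had an interval of -2.63 to 1.46.

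The other Cand1 probe sets did not all give that order. Probe set 1435781_at read 5.96 and 5.06 on the Ddb1-deficient arrays, against 6.21 and 6.33 on the control arrays, with both Ddb1-deficient values below both controls (log2 difference -0.76, adjusted p = 0.631 by limma over all probe sets). Probe set 1455751_at read 4.05 and 4.02 on the Ddb1-deficient arrays, against 4.35 and 2.04 on the control arrays. There control array 2 stood apart, and the difference of 0.83 had an interval of -1.53 to 3.20. The fourth Cand1 probe set was dim, with a difference of 0.10.

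**Figure D2:**
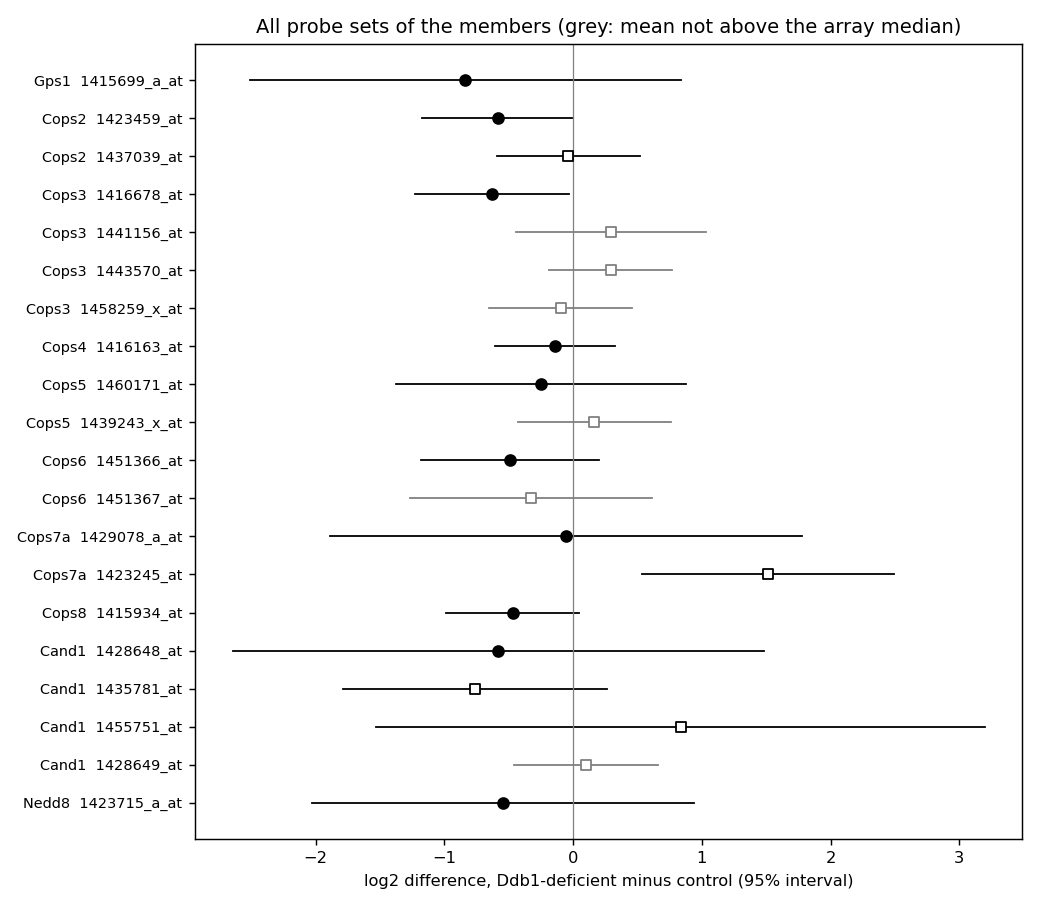
Log2 difference of Ddb1-deficient minus control (horizontal axis) for all 20 member probe sets, with the 95% interval from the limma fit over all probe sets as a bar; filled circles stand for the gene, open squares are its other probe sets, and grey marks are dim. Only Cops3 1416678_at lies wholly below 0, with Cops2 1423459_at reaching the 0 line at its upper end, and only Cops7a 1423245_at lies wholly above.

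Of the 20 probe sets, 14 were brighter than the median and 6 were dim. Both Ddb1-deficient arrays lay below both controls for 6 of the 20 and above both for 2, where 18.0% and 21.5% of all probe sets did. All 6 below belonged to the 14 brighter probe sets, and of the 2 above 1 did (Cops7a 1423245_at), the other being a dim Cops3 probe set. At an unadjusted p under 0.05, 1 was lower and 1 higher, where 5.48% of all probe sets were lower and 4.20% higher. None passed the adjusted threshold (smallest adjusted p 0.363), nor did any other probe set (0 of 45037, 0%, by limma; the methods' test called 2).

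The members showed different patterns across the 2 Ddb1-deficient arrays. On Ddb1-deficient array 2, 9 of the 10 lay below both controls (all but Cops7a), where 33.9% of all genes did. On Ddb1-deficient array 1, 6 of the 10 did (Cops2, Cops3, Cops4, Cops6, Cops7a and Cops8), where 34.0% of all genes did, and 3 (Cops5, Cand1 and Nedd8) lay above both controls. The 2 Ddb1-deficient arrays differed by a median of 0.65 (log2, without sign) over the members and the controls by 0.24, beside 0.32 and 0.24 over all genes. Without Ddb1-deficient array 2 the differences of Cops5, Nedd8 and Cand1 were 0.26, 0.15 and 0.42, so their direction rests on that array. Set against the control of the same replicate number and sex, replicate 1 gave a median difference of -0.17 over the members and replicate 2 one of -0.68. In replicate 1 the differences of Gps1, Cops5, Cand1 and Nedd8 were 0.21, 0.25, 0.45 and 0.25, and in replicate 2 they were -1.89, -0.75, -1.62 and -1.34. Those of Cops2 were -0.57 and -0.61, and those of Cops4 -0.14 and -0.14.

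**Figure D3:**
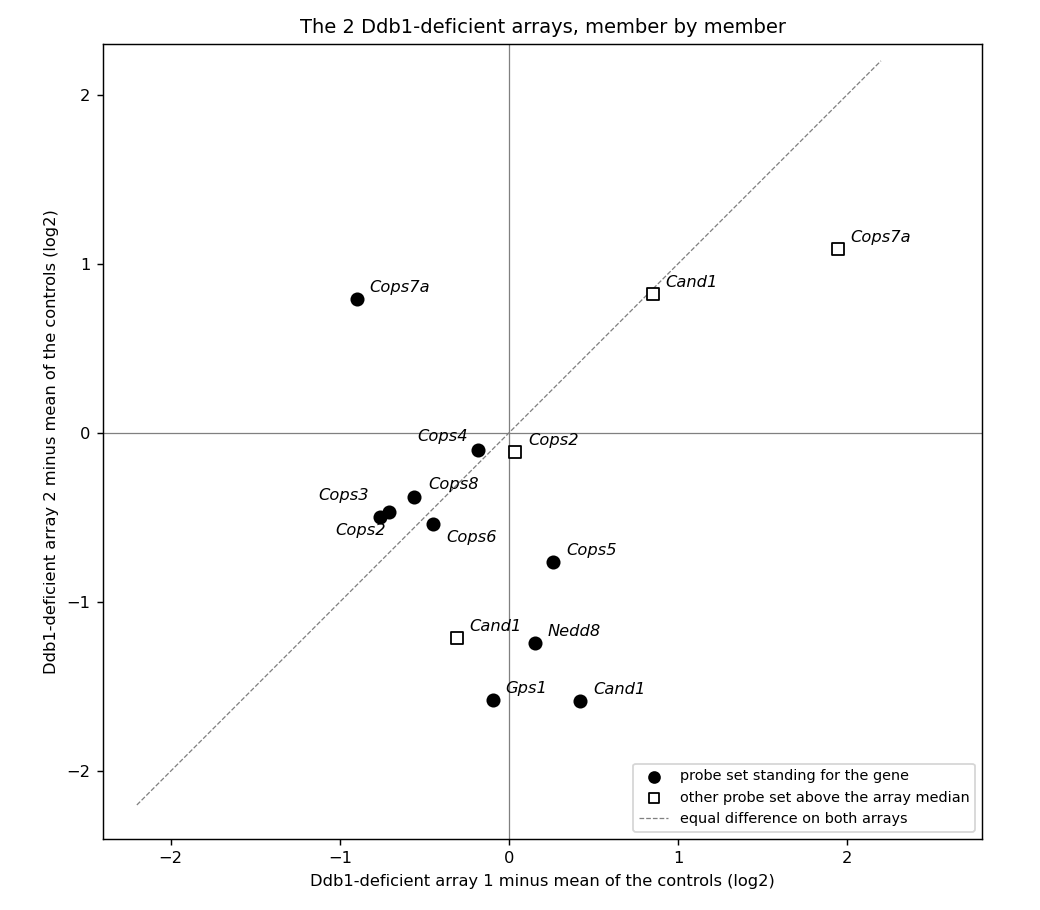
Each probe set that is not dim by its difference from the control mean on Ddb1-deficient array 1 (horizontal axis, log2) and array 2 (vertical axis, log2); filled circles stand for the gene, open squares are other probe sets, and the dashed line marks equal differences. Cops2, Cops3, Cops4, Cops6 and Cops8 lie near the line below 0, while Gps1, Nedd8, Cand1 and Cops5 lie far below it.

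Several marker lists differed along with the groups or with Ddb1-deficient array 2, and their part in the members' differences was not tested. Over all genes, both Ddb1-deficient arrays lay below both controls for 18.4% and above for 22.5%. Of the 20656 genes, 9869 were lower on Ddb1-deficient array 2 than on array 1. B lineage and cell cycle genes were lowest in sum on Ddb1-deficient array 2, where Gps1, Cops5, Cand1 and Nedd8 were low too. B lineage markers (7 of 8 measured) had a summed linear intensity of 4108 and 270 on the Ddb1-deficient arrays and 5674 and 8138 on the control arrays, and all 7 were lower on Ddb1-deficient array 2 than on array 1. Cell cycle genes summed to 8563 and 6011 on the Ddb1-deficient arrays and 9291 and 8964 on the control arrays, with 8 of 12 below both controls on both Ddb1-deficient arrays and all 12 lower on Ddb1-deficient array 2 than on array 1. Markers of macrophages, red cells, endothelium and hepatoblasts were instead brighter in sum on both Ddb1-deficient arrays. Macrophage markers (12 of 13 measured) summed to 14791 and 18229 on the Ddb1-deficient arrays and 2177 and 3595 on the control arrays, and for all 12 both Ddb1-deficient arrays lay above both controls. Erythroid markers summed to 3025 and 3510 on the Ddb1-deficient arrays and 455 and 1508 on the control arrays, with 6 of 7 above both controls. Endothelial markers summed to 148 and 166 on the Ddb1-deficient arrays and 45 and 61 on the control arrays, with 5 of 8 above. Hepatoblast markers summed to 676 and 929 on the Ddb1-deficient arrays and 187 and 210 on the control arrays. Of the 6, 4 lay above both controls and 1 (Hnf4a, by its brightest probe set) below. Of the 3 lineage markers measured, Itgam and Cd3e were dim, and Klrb1c, a marker of natural killer cells, lay just above the limit and below both controls, at 2.23 and 2.204 on the Ddb1-deficient arrays against 2.32 and 2.65 on the control arrays. The Gapdh 3′ minus 5′ log2 signal, a sign of RNA quality, read 3.55 and 3.61 on the Ddb1-deficient arrays, against 3.62 and 4.004 on the control arrays. The same measure for b-actin read 0.263 and 0.509 on the Ddb1-deficient arrays, against 0.237 and 0.239 on the control arrays. It was highest on Ddb1-deficient array 2, and its part in the low values there was not tested.

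Promoters of the members are shown because 9 of the 10 lay below both controls on Ddb1-deficient array 2, although 5 of the 10 were lower on that array than on array 1 and 5 were not. RefSeq promoter entries (GRCm38.p6, 250 bases before to 50 after a start) matched 9 of the 10 members, with 11 entries in all and none for Cops5. Members are counted here by gene, while the shares beside them are of promoters. The counts and shares are therefore not in like units, as a gene with several entries has more places to match. The ETS core CCGGAAG occurred, on either strand, in 6 of the 9 (Gps1, Cops2, Cops3, Cops7a, Cops8 and Nedd8), where 8.86% of all promoters of this length and 11.6% of those of protein-coding genes held it. The following 60-base windows lie before the start, on the strand of the gene, 5′ to 3′, with the core or its reverse complement in capitals. In Gps1 the core lies after the first of its 2 starts but before the second (at -227), and its window is not shown.
Cops2 (chr2:125859083-125859142, minus strand): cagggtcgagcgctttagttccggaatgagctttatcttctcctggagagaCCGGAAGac
Cops3 (chr11:59839891-59839950, minus strand): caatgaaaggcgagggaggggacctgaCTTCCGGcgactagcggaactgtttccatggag
Cops7a (chr6:124965513-124965572, minus strand): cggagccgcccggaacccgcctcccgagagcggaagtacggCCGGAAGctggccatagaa
Cops8 (chr1:90603270-90603329, plus strand): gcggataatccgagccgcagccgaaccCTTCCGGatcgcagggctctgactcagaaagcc
Nedd8 (chr14:55671892-55671951, minus strand): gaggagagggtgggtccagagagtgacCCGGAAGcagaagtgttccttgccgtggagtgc

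The core was 1 of 13 patterns searched on both strands, so its share was picked out after the search. Shares in brackets are of all promoters, then of those of protein-coding genes. The GC box GGGCGG was in 6 of the 9 (Gps1, Cops4, Cops6, Cops7a, Cops8 and Cand1; 35.7%, 46.2%). The E box CACGTG was in 2 (7.15%, 7.84%), and AAGATGG, the core of the YY1 site, in 2 (6.34%, 6.24%). The CCAAT box was in 1 (37.4%, 38.2%), and the palindrome TCTCGCGAGA in 1, Cand1 (0.466%, 0.673%). CCGGAAGT (3.89%, 5.15%) and ACCGGAAG (2.3%, 3.01%), which contain the ETS core, were in 1 each. TATAAA (13.6%, 12.6%), TGACGT (7.51%, 8.49%) and TGACGTCA, which contains it (1.79%, 2.23%), were in 0 of the 9. So were GCGCATGCGC, the NRF1 site (0.971%, 1.33%), and TTTCGCG, the E2F core (0.849%, 1.19%). The ETS core was in members with both arrays low (Cops2, Cops3, Cops8), in members low on 1 Ddb1-deficient array (Gps1, Nedd8) and in Cops7a, and was not found in Cops4, Cops6 or Cand1.

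The rest of the pathway is given by its counts, and whether it differs from the members was not tested. Over 28 measured genes of the cullin and neddylation lists other than the members and Ddb1, 15 had a lower and 13 a higher mean on the Ddb1-deficient arrays, with a median log2 difference of -0.01. Both Ddb1-deficient arrays lay above both controls for 5 of the 28 and below for 3, where 22.5% and 18.4% of all genes did. Of the remaining signalosome genes, Cops9 read 9.81 and 9.92 on the Ddb1-deficient arrays, against 10.002 and 10.11 on the control arrays, below both controls with a difference of -0.19. Cops7b, the paralog of Cops7a, read 7.17 and 5.81 on the Ddb1-deficient arrays, against 7.25 and 6.70 on the control arrays, again lowest on Ddb1-deficient array 2 (difference -0.48, adjusted p = 0.826, limma).

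Among 10 measured genes that attach Nedd8 (its E1, E2s, co-E3s and RING proteins), the median difference was 0.03. Of these 10, 2 lay above both controls and 1 below, where 22.5% and 18.4% of all genes did. Dcun1d4, a co-E3 of cullin neddylation, read 2.26 and 2.38 on the Ddb1-deficient arrays, against 1.01 and 1.57 on the control arrays. It was dim, with the only unadjusted p under 0.05 of its list, where 4.90% of all genes were higher at that threshold (difference 1.03, adjusted p = 0.327, limma). Its relative Dcun1d1 read 8.60 and 7.51 on the Ddb1-deficient arrays, against 7.39 and 7.40 on the control arrays, above both controls by the brightest of its 5 probe sets (difference 0.66), while another, 1425986_a_at, lay below both with -1.71. The RING protein Rnf7 read 8.75 and 8.09 on the Ddb1-deficient arrays, against 8.76 and 8.87 on the control arrays, below both.

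Of 5 genes that remove Nedd8 or restrain the cycle, 2 had an unadjusted p under 0.05 (limma), both higher. Over all genes 4.90% were higher at that threshold and 6.03% lower. In the same 5 genes, both Ddb1-deficient arrays lay above both controls for 2 and below for 1, where 22.5% and 18.4% of all genes did. Glmn, whose protein binds Rbx1 and blocks the ligase, read 4.89 and 5.10 on the Ddb1-deficient arrays, against 4.10 and 3.70 on the control arrays. Both Ddb1-deficient arrays were high (difference 1.09, SE 0.23, unadjusted p = 0.00962, adjusted p = 0.280, limma). Cand2, the relative of Cand1, read 3.60 and 3.37 on the Ddb1-deficient arrays, against 2.77 and 2.11 on the control arrays (difference 1.05, adjusted p = 0.374, limma), but its other probe set was dim and lay below both controls, with a difference of -0.61. Senp8, the protease that matures Nedd8, read 4.29 and 4.97 on the Ddb1-deficient arrays, against 5.34 and 4.83 on the control arrays, and overlapped by its brightest probe set. Its probe set 1437307_at read 2.00 and 1.64 on the Ddb1-deficient arrays, against 2.58 and 2.18 on the control arrays, below both (difference -0.56). Senp8 1438102_at was dim and also below both controls (-0.35).

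By the brightest probe set of each gene, the 8 cullins, on which the signalosome acts, had log2 differences between -0.43 (Cul2) and 0.26 (Cul4a), with a median of 0.00, and 0 of the 8 had an unadjusted p under 0.05. Of these probe sets that of Cul1 alone separated the groups, at 6.62 and 6.74 on the Ddb1-deficient arrays against 6.52 and 6.54 on the control arrays. Cul4a, a partner of Ddb1, read 8.97 and 8.47 on the Ddb1-deficient arrays, against 8.70 and 8.21 on the control arrays. The groups overlapped for Cul4a. On Ddb1-deficient array 2, 7 of the 8 cullins were lower than on array 1, where 9869 of all 20656 genes were. Some other probe sets of the same genes gave lower values. Of all 17 cullin probe sets 4 lay below both controls and 1 above, where 18.0% and 21.5% of all probe sets did. Cul3 1422795_at read 6.19 and 6.49 on the Ddb1-deficient arrays, against 7.82 and 7.95 on the control arrays (difference -1.54, unadjusted p = 0.0017, adjusted p = 0.224, limma over all probe sets). Cul4b 1417454_at read 6.01 and 6.27 on the Ddb1-deficient arrays, against 6.99 and 6.96 on the control arrays (difference -0.83, unadjusted p = 0.0118, adjusted p = 0.357, limma over all probe sets). The remaining pair below both controls was Cul5 1452722_a_at (-1.21) and Cul3 1450756_s_at (-0.77), so the size of the difference for Cul3, Cul4b and Cul5 depended on the probe set. The adaptors Eloc and Elob, which link Cul2 and Cul5 to their receptors, had differences of 0.38 and -0.10 and overlapped by their brightest probe sets. The other Eloc probe set, 1452593_a_at, read 3.63 and 4.36 on the Ddb1-deficient arrays, against 5.09 and 5.05 on the control arrays, below both controls (difference -1.08, unadjusted p = 0.0259, adjusted p = 0.447, limma over all probe sets).

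The proteasome lid and the translation factor eIF3 are built in part from PCI and MPN proteins, like the signalosome, and serve for comparison. Their lists hold other subunits too. Over the 9 lid genes the median difference was -0.07 (log2), and 2 lay above both controls and 2 below. Over the 13 eIF3 genes it was -0.08, and 2 lay above and 5 below. Of all genes, 22.5% lay above and 18.4% below in this way. Psmd6, a lid subunit with a PCI domain, read 7.22 and 7.64 on the Ddb1-deficient arrays, against 8.02 and 8.19 on the control arrays (difference -0.68, adjusted p = 0.444, limma). Eif3f, an MPN subunit, read 8.87 and 8.90 on the Ddb1-deficient arrays, against 9.43 and 9.40 on the control arrays (difference -0.53, adjusted p = 0.420, limma). Both genes separated the groups, as did Eif3k (difference -0.48) and Eif3m (-0.44), all below the controls, and Sem1 of the lid (-0.59). Psmd3 lay above both controls, with a difference of 0.41. Whether the members differ from these 2 complexes was not tested.

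**Figure D4:**
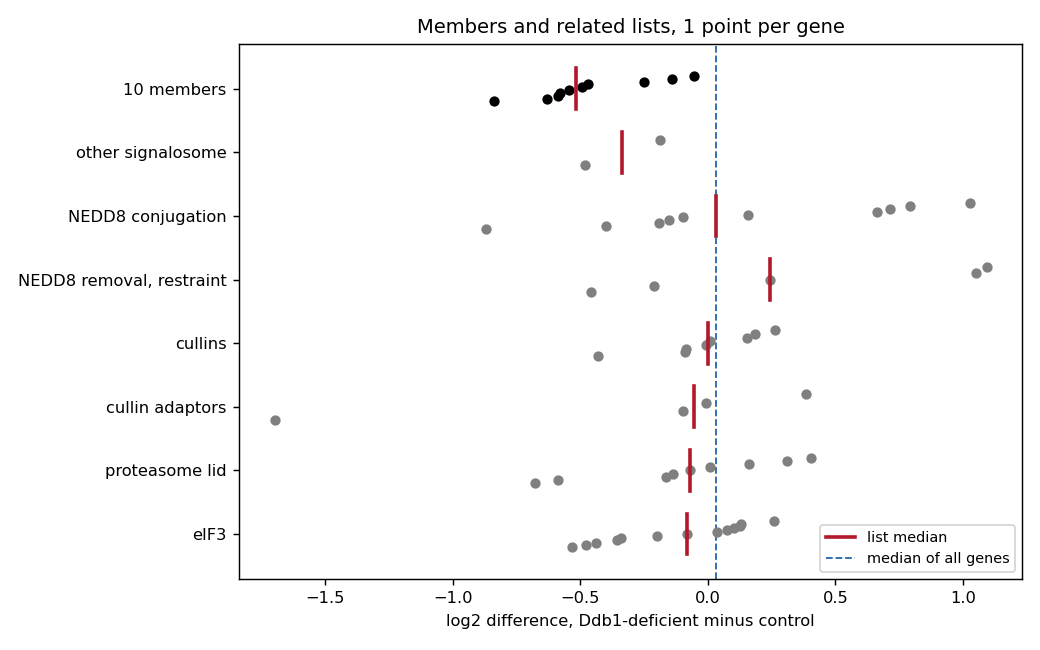
Log2 difference of Ddb1-deficient minus control (horizontal axis) for the 10 members and 7 related lists, with 1 point per gene, a red bar at the median of each list and a dashed line at the median of all genes (0.03). All 10 members lie below 0, where 9430 of all 20656 genes and 6308 of the 11770 brighter genes do. The median of the members is -0.52, which came to -0.23 with the mean of all probe sets and to -0.31 without Ddb1-deficient replicate 2. Cops7a turned to 0.73 with that mean and to 0.05 after a second quantile normalization. Each gene is drawn by its brightest probe set, and the point at -1.70 among the adaptors is Ddb1.

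Across the 4 arrays the median pattern of the 10 members, each centred on its own mean, was -0.16 and -0.24 on the Ddb1-deficient arrays and 0.14 and 0.31 on the control arrays. Cops6 lay nearest to it among the members (root mean square distance 0.128, log2) and Cand1 farthest (0.687). Of the genes in the other lists, Eif3h (distance 0.0568), Ccnb1 (0.0821) and Eif3e (0.0879) came nearest. Eif3h, an MPN subunit of eIF3, read 9.43 and 9.39 on the Ddb1-deficient arrays, against 9.72 and 9.78 on the control arrays. Ccnb1, the mitotic cyclin B1, read 6.30 and 6.10 on the Ddb1-deficient arrays, against 6.37 and 6.66 on the control arrays. Eif3e, a PCI subunit, read 10.50 and 10.26 on the Ddb1-deficient arrays, against 10.73 and 10.74 on the control arrays. The 3 were chosen for nearness to a pattern that is lower on both Ddb1-deficient arrays, so their direction follows from that choice. All 3 were lower on both Ddb1-deficient arrays than on both controls, by 0.34, 0.32 and 0.36 on the log2 scale, and none of these probe sets had an unadjusted p under 0.05. For Ccnb1 this holds for its brightest probe set, 1419944_at, alone. Its others, 1448205_at and 1419943_s_at, gave -2.76 and -0.73, both below both controls (unadjusted p = 0.0164 and 0.0187, adjusted p = 0.392 and 0.406, limma over all probe sets).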

How the data were processed

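Gene expression of LSK cells was measured on 4 arrays, grouped by the labels. The authors normalized them by RMA in GeneSpring and deposited, for each probe set, its RMA intensity on a linear scale. The deposited log2 columns and series matrix hold the log2 values relative to the control mean. A deposited table with the authors' own p-values and fold changes for 2229 probe sets was not used, nor were its 8 columns of sample values.

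The log2 of the linear intensity was used. The 64 control probe sets were left out. Of the 45037 others, 37463 carry 1 gene name, 1460 several and 6114 none. Names were updated by Entrez identifier to RefSeq symbols (GRCm38.p6), which matched 34158 probe sets and renamed 4650. Each gene was represented by the single-name probe set with the highest mean. Nae1, Vsig4, Cd79a and Ly6g had no such probe set and were not analysed here, and 1 further marker is not reported here. A second fit took every probe set.

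The comparison used limma 3.58.1 (lmFit, eBayes) under R 4.3.3 and the Benjamini-Hochberg adjustment. The fit had 2 residual degrees of freedom and 1.96 from the prior. The prior gave 1.91 in the fit of every probe set. The script was tested on simulated data. Intervals of 95% use the degrees of freedom of their own fit. The number of arrays limits precision. The Ddb1-deficient arrays correlated with each other at r = 0.94 over probe sets, the control arrays at r = 0.97.

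Named are all members, Ddb1, the 3 genes with the smallest unadjusted p of each related list (none passed the adjusted threshold), and the 3 list genes nearest to the members' median pattern. Kit, Ly6a, Hnf4a, Itgam, Cd3e, Klrb1c and Xist were added as checks. Other probe sets of named genes were chosen after their values were seen. The members and lists were chosen with earlier results of these data known. The alternatives were the methods' test (unpaired, equal variance), trend and robust eBayes, the replicate number as a block, brighter genes only, the mean of all probe sets, no _x_at or _s_at probe sets, the series matrix, arrays centred on their median, quantile normalization, and each array left out.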

Additional observations from a re-analysis of the deposited data

How the results depend on the processing

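The methods' test called 2 genes and 2 probe sets, where limma and every other alternative called 0. The count of members lower at an unadjusted p under 0.05 was 0 by the methods' test, by eBayes with trend and robust, with the replicate block, among brighter genes only and after quantile normalization, 2 with arrays centred on their median, and 0 to 4 when 1 array was left out (4 without Ddb1-deficient replicate 1), against 1 in the reported fit. With the mean of all probe sets, 1 member (Cops7a, 0.73) was higher at that threshold and 1 lay above both controls, and the median difference of the members was -0.23. It was -0.41 after quantile normalization, and -0.55 to -0.31 with 1 array left out, the smallest in size without Ddb1-deficient replicate 2. Leaving out 1 array also gave 5 to 9 members below and 0 to 3 above both controls, as 1 array a group separates more easily. Of 130 member values under the 13 alternatives, 123 kept their direction, but many of them could not reverse. The methods' test, trend and robust eBayes, the replicate block, brighter genes only and the series matrix left every member difference as it was. So did leaving out _x_at and _s_at probe sets, as none of these stands for a member. Reversed were Cops7a with the mean of all probe sets (0.73), after quantile normalization (0.05), without Ddb1-deficient replicate 1 (0.79) and without control replicate 2 (0.21), and, without Ddb1-deficient replicate 2, Cops5 (0.26), Cand1 (0.42) and Nedd8 (0.15). Without 1 array at a time, Cops7a spanned -0.90 to 0.79, Cops5 -0.76 to 0.26, Cand1 -1.59 to 0.42 and Nedd8 -1.24 to 0.15, the low ends of the last 3 without Ddb1-deficient replicate 1. The cause was not tested. With 1 array left in a group, it is assumed to vary like the other group.

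The replicate numbers are shared between the groups, but the labels name nothing else that pairs the samples. Deviations of same-numbered arrays from their group means had a correlation of -0.016 over genes. With the replicate block, 0 genes were called and 0 members were lower at an unadjusted p under 0.05. The p-values of the members changed, but their differences and the other member counts did not. Limits are the 2 arrays a group, RNA amplified in 2 cycles, and dim probe sets, where values near the array median carry little signal.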
